A study of Mus musculus with 12 samples.

Results

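Hox, Tbx, Meis and Pbx genes encode transcription factors that give cells their position along the body and limb axes, and their RNA was read here in mouse embryonic fibroblasts (MEFs, connective-tissue cells cultured from embryos). The group was formed by name: every gene listed in the deposited table whose symbol began with Hoxa, Hoxb, Hoxc, Hoxd, Tbx, Meis or Pbx followed by a digit, whatever its values. That gave 55 of the 16425 genes listed, namely 11 HoxA, 10 HoxB, 9 HoxC, 8 HoxD, 10 Tbx, 3 Meis and 4 Pbx genes. Among the 55 were 4 transcripts from the opposite strand (Hoxa11os, Hoxb5os, Hoxd3os1 and Tbx3os1). Hoxa2, Hoxb1, Hoxd1, Hoxd3, Tbx10, Tbx19, Tbx21 and Tbx22 are annotated family genes that were not listed in the table.

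The series holds 12 samples of wild-type MEFs in 4 groups of 3 biological replicates. The 6 libraries used here came from cells grown in 0.5 µM doxorubicin, a DNA-damaging drug that activates p53, for 24 h. In 3 of them, called sgPVT1, the cells had been infected with sg10, a guide directed at the p53-binding element in Pvt1, which is a long noncoding RNA gene next to Myc. In the other 3, called sgTom, they had been infected with the non-targeting guide sgtom. Both groups are wild-type cells and both received the drug, so the guide is the only labelled difference between them. The labels do not state the embryos, the age of the embryos, or whether the cells were pooled or clonal. The 6 untreated libraries were not analysed here.

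In vertebrate embryos the Hox genes of one cluster are expressed in the order in which they lie on the chromosome. Low-numbered paralogues at the 3′ end act nearer the head, and high-numbered paralogues at the 5′ end act towards the tail and, in HoxA and HoxD, the tips of the limbs. Pbx and Meis proteins are partners that bind DNA together with Hox proteins, and Tbx proteins include the limb-type regulators Tbx4 (hindlimb) and Tbx5 (forelimb). Cultured fibroblasts are known to keep much of the Hox code of the place they came from.

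Values are CPM, the reads of a gene scaled to the size of its library. The libraries held 59572326, 50091418 and 66132317 reads in genes for sgPVT1 replicates 1, 2 and 3, and 52445969, 53078389 and 61550435 for sgTom replicates 1, 2 and 3. All 12 fibroblast markers were listed, and their summed level lay between 37573 and 38664 CPM in sgPVT1 libraries and between 38803 and 39265 CPM in sgTom libraries. Pvt1 measured 8.04, 5.93 and 5.40 CPM in sgPVT1 replicates 1, 2 and 3, against 16.4, 11.7 and 12.1 CPM in sgTom. It averaged 6.46 ± 1.40 CPM in sgPVT1 libraries and 13.4 ± 2.61 CPM in sgTom libraries (SD, n = 3 each), with no overlap. That difference had an adjusted p of 0.99997 in limma without the replicate number in the model and of 0.000140 with it. Bulk RNA cannot tell apart fewer cells of a type and less RNA per cell, which holds for every level below.

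The promoters of 4 Hox genes whose levels are central below are shown from RefSeq (build GRCm38.p6), each with 250 bases before and 50 after the annotated start, read 5′ to 3′ on the gene's strand. Hoxb4 and Hoxb8 stand for the HoxB genes, whose levels moved together. Hoxd12 and Hoxd13 are neighbours of very different level and pattern. Capitals mark a match to TGATNNAT, the composite site of Pbx and Hox proteins, and the other letters are in lower case.
Hoxb4, chr11:96318017-96318316, plus strand: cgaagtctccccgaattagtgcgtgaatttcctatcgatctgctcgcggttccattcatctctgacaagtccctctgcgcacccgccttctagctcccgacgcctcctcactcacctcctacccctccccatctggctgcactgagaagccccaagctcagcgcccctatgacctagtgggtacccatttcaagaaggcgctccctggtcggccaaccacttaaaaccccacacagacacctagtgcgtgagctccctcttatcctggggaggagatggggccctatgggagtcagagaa
Hoxb8, chr11:96281655-96281954, plus strand: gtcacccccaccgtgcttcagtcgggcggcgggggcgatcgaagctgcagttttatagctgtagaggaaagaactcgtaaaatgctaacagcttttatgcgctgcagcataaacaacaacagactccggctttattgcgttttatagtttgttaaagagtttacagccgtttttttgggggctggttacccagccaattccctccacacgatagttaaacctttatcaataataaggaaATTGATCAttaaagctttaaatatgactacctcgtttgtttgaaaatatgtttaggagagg
Hoxd12, chr2:74674763-74675062, plus strand: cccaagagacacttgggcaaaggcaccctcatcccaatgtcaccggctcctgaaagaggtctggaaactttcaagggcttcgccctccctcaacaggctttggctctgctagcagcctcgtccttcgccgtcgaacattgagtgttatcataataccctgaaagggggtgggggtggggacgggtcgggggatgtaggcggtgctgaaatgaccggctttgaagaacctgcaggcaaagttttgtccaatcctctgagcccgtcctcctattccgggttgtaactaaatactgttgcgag
Hoxd13, chr2:74667975-74668274, plus strand: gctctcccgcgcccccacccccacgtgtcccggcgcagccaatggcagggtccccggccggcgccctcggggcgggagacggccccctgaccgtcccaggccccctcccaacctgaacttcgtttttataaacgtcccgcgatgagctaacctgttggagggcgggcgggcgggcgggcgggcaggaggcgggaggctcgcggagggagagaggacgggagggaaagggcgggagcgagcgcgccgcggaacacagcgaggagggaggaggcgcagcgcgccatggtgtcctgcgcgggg

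The Hoxb8 promoter held 1 match to TGATNNAT, on the minus strand, and the other 3 sequences held none. Their GC contents were 58.0% for Hoxb4, 42.3% for Hoxb8, 55.0% for Hoxd12 and 74.3% for Hoxd13. RefSeq promoters were found for 31 of the 55 symbols, 34 promoters in all. TGATNNAT, searched on both strands, was in 3 of those 34 (8.82%; Hoxb8, Tbx6 and 1 of the Hoxd11 promoters), against 8.85% of all 32851 promoters of that length. The Meis motif TGACAG was in 3 of 34 (8.82%), against 19.2% of all promoters. The DR5 element, a spaced direct repeat bound by retinoic acid receptors, searched as its consensus half-sites, was in 0 of 34, against 0.00913% of all promoters. TGATNNAT and TGACAG cannot start at the same base of a strand, and a match describes the letters in the window only.

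Levels of different genes were compared per kilobase of exon. The fibroblasts expressed mainly the 5′, high-numbered end of the Hox clusters. Paralogue groups 9 to 13 made up 74.5% ± 3.87 of the summed Hox level (SD over the 6 libraries), groups 4 to 8 made up 23.3% ± 3.64 and groups 1 to 3 made up 2.26% ± 0.348. Group 13 alone held 34.5% ± 3.97, and Hoxd13 was the gene with the highest level per kilobase of all 55.

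**Figure D1:**
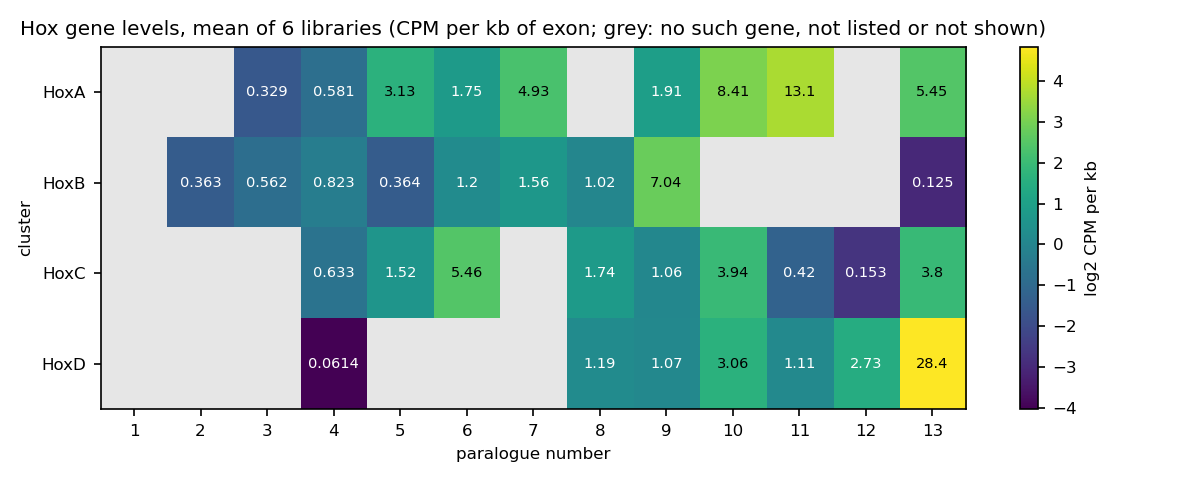
Level of coding Hox genes as the mean of the 6 libraries, in CPM per kilobase of exon (number in the cell; colour on a log2 scale), by cluster and paralogue number. Hoxd13 stands at 28.4, Hoxa11 at 13.1 and Hoxa10 at 8.41, and Hoxd4 is lowest at 0.0614.

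By cluster, HoxA (mouse chromosome 6) held 37.0% ± 2.22 of the summed Hox level, HoxD (chromosome 2) 34.4% ± 3.42, HoxC (chromosome 15) 16.9% ± 0.513 and HoxB (chromosome 11) 11.6% ± 4.04 (SD over 6 libraries). The ranges of HoxA (35.5% to 40.4%) and HoxD (29.6% to 38.0%) overlapped. HoxC (16.2% to 17.5%) and HoxB (7.86% to 17.3%) overlapped too, through sgPVT1 replicate 2. Without Hoxd13, the rest of HoxD came to 8.40% ± 0.646.

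The share of HoxB was 7.86%, 17.3% and 9.52% in sgPVT1 replicates 1, 2 and 3, against 8.57%, 16.1% and 10.4% in sgTom replicates 1, 2 and 3. It was highest in replicate 2 under both guides. HoxD showed the lowest share in the same libraries, at 35.3%, 29.6% and 38.0% in sgPVT1 and 34.4%, 31.3% and 37.9% in sgTom. Shares of one total depend on each other. The HoxD level itself was highest in replicate 1 under both guides, with replicates 2 and 3 close together. It was 38.6, 36.7 and 36.5 CPM per kilobase in sgPVT1 and 39.5, 37.2 and 37.5 in sgTom. The summed Hox level was highest in replicate 2, at 109, 124 and 95.9 CPM per kilobase in sgPVT1 and 115, 119 and 98.9 in sgTom.

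**Figure D2:**
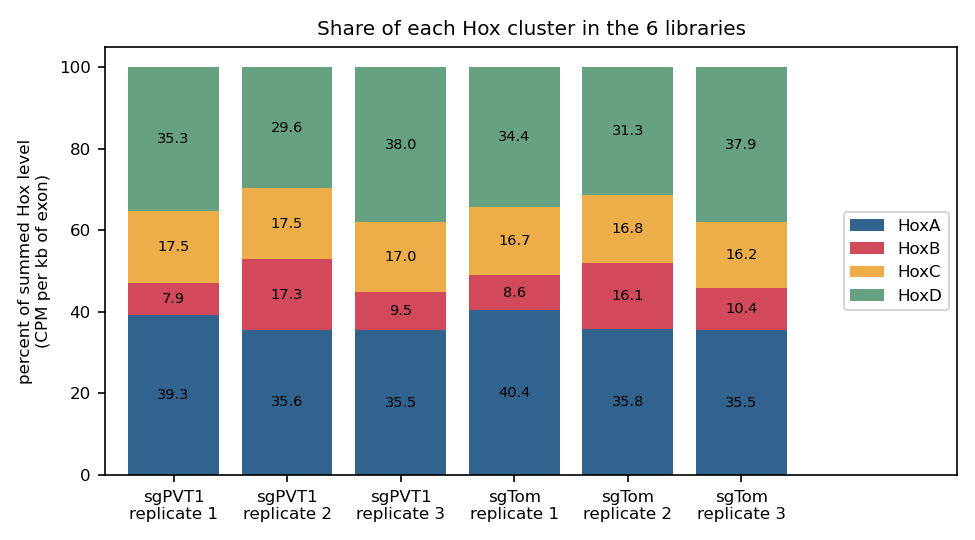
Percent of the summed Hox level (CPM per kilobase of exon) in each cluster, 1 bar per library, sgPVT1 libraries on the left and sgTom libraries on the right. The HoxB segment is 17.3% and 16.1% in the replicate 2 libraries and 10.4% or less in the other 4.

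Hoxd13, an autopod and genital-tubercle regulator at chr2:74668310-74671599 (plus strand, mm10 coordinates from GENCODE M21), measured 74.5, 66.3 and 68.5 CPM in sgPVT1 replicates 1, 2 and 3, against 76.1, 67.7 and 70.7 CPM in sgTom. Hoxa11, needed for the middle limb segment, measured 30.3, 32.0 and 27.0 CPM in sgPVT1, against 32.5, 31.4 and 27.2 CPM in sgTom. Hoxa10, a regulator of the upper limb segment and the reproductive tract, measured 32.8, 26.6 and 22.2 CPM in sgPVT1, against 34.7, 25.6 and 23.2 CPM in sgTom. Replicate 1 was highest in Hoxd13 and Hoxa10 and replicate 3 lowest in Hoxa11 and Hoxa10 under both guides, and the 2 guides overlapped in all 3 genes. Hoxa11 and its opposite-strand transcript Hoxa11os share 35.0% of Hoxa11 exon bases. The strand setting of the authors' counting is not given in the sources used here, so reads of such partners cannot be told apart. The same holds for Hoxb3 and Hoxb2, which share 52.9% and 27.3% of their exon bases with opposite-strand genes, for Hoxa3 (25.4%), Hoxa7 (20.4%) and Tbx18 (20.6%).

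At the low end, 4 genes did not reach 0.5 CPM in 3 libraries and were not tested. Hoxb13 lay between 0.0756 and 0.461 CPM, Hoxc12 between 0.0302 and 0.287 CPM, Hoxd4 between 0.0591 and 0.277 CPM, and Hoxd3os1 between 0.192 and 0.438 CPM. Hoxd4 shares 52.3% of its exon bases with other genes of its own strand. The other 51 members entered the tests.

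Replicate numbers, not guides, ordered these genes. The sgPVT1 and sgTom libraries of equal replicate number deviated together over all tested genes, so each number was treated as a shared source and the 3 numbers were compared across both guides. That pairing was read from the same values that were then tested. Each number is then a single source, and the test's spread is that between libraries of equal number, after the guide. The labels do not say what a number shares, so source, day and preparation cannot be told apart. Of the 51 members, 34 (66.7%) differed between replicate numbers at an adjusted p below 0.05 (limma's moderated F test with the guide in the model), against 48.6% of all 14440 genes tested. The replicate number held 86.8% of the sum of squares of the members' log2 values, the guide 3.25% and the rest 9.91%. Over all genes tested those shares were 86.9%, 4.59% and 8.499%. By this measure alone, the weight of the replicate number was no larger in the members than over all genes. By family, 7 of 11 HoxA, 8 of 9 HoxB, 6 of 8 HoxC, 3 of 6 HoxD, 7 of 10 Tbx, 2 of 3 Meis and 1 of 4 Pbx genes passed.

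The HoxB cluster moved as a block. All 8 tested coding HoxB genes, Hoxb2 to Hoxb9, were higher in replicate 2 than in replicate 1 and than in replicate 3, each at an adjusted p below 0.05. Across all genes, 3.32% met that description. Replicate 2 minus replicate 1 was 0.65 to 1.13 on the log2 scale and replicate 2 minus replicate 3 was 0.81 to 1.21, with standard errors of 0.09 to 0.17. Adjusted p-values ran from 7.66e-06 to 0.00166. The medians over the 8 genes were 0.98, 0.89 and 0.01 for replicate 2 minus 1, 2 minus 3 and 1 minus 3, against 0.00, 0.01 and 0.01 over all genes.

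Hoxb9, the 5′-most of these 8 genes (chr11:96271457-96276595, plus strand), acts in thoracic and rib patterning. It measured 11.98, 29.4 and 13.6 CPM in sgPVT1 replicates 1, 2 and 3, against 13.1, 25.4 and 15.3 CPM in sgTom. Hoxb8, a regulator of the trunk and of blood progenitors whose promoter is printed above, measured 1.96, 4.66 and 1.43 CPM in sgPVT1, against 1.84, 4.37 and 1.92 CPM in sgTom. Hoxb6 measured 1.86, 3.71 and 1.39 CPM in sgPVT1, against 2.30, 3.39 and 1.48 CPM in sgTom. In all 3 genes both replicate 2 libraries lay above the other 4 libraries.

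The remaining HoxB genes were also highest in both replicate 2 libraries, while the order of replicates 1 and 3 varied between genes. Hoxb4, a regulator of blood stem cells, measured 1.06, 3.42 and 1.40 CPM in sgPVT1, against 1.47, 3.28 and 2.04 CPM in sgTom. Hoxb7 measured 1.30, 4.14 and 1.58 CPM in sgPVT1, against 2.16, 3.84 and 1.48 CPM in sgTom. Hoxb2, Hoxb3 and Hoxb5 lay between 0.591 and 3.65 CPM. Replicate 2 stood above the mean of replicates 1 and 3 by a factor of 1.86 to 2.92 in sgPVT1 libraries (median 2.64) and of 1.79 to 2.32 in sgTom libraries (median 2.04). The untested Hoxb13, at the far 5′ end, and the opposite-strand Hoxb5os were also highest in both replicate 2 libraries. Hoxb5os measured 1.34, 1.59 and 0.811 CPM in sgPVT1, against 1.52, 1.69 and 1.38 CPM in sgTom, with an adjusted p of 0.0720.

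None of the 8 calls was lost when any 1 library was left out. Without both replicate 2 libraries, 6 of the 8 were no longer called, and Hoxb6 and Hoxb9 were.

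**Figure D3:**
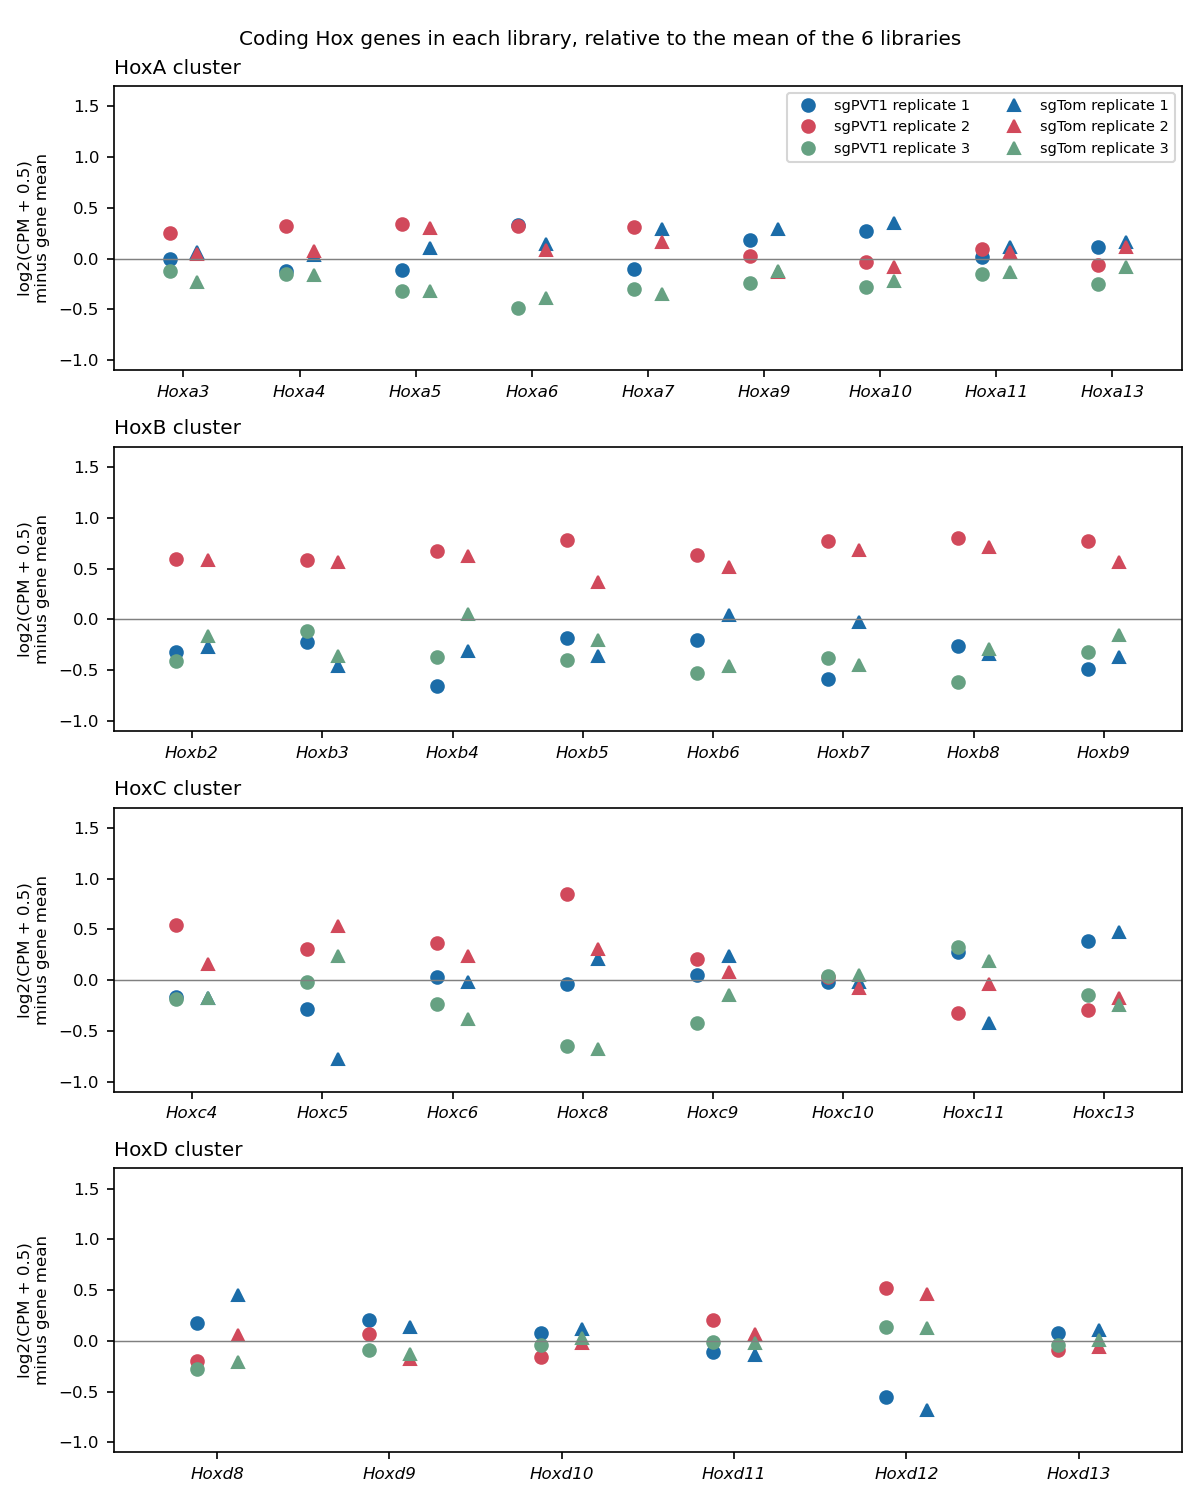
Tested coding Hox genes in each library as log2(CPM + 0.5) minus the gene's mean over the 6 libraries, 1 panel per cluster, genes in order of paralogue number, circles for sgPVT1 and triangles for sgTom, colour for the replicate number. Both replicate 2 points lie on top in all 8 HoxB genes, while the order changes from gene to gene in the other clusters.

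Over all members, both replicate 2 libraries lay above the other 4 in 21 of 51, against 15.1% of all genes. Of the 9 tested HoxB genes 9 did so, of the HoxA genes 3 of 11, of the HoxC genes 4 of 8 and of the HoxD genes 2 of 6. Both replicate 1 libraries lay above the other 4 in 14 members (25.7% of all genes) and below them in 9 (25.3%). Both replicate 3 libraries lay below the other 4 in 16 members (16.1% of all genes) and above them in 2 (15.8%), and both replicate 2 libraries lay below in 4 (13.5%).

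In the pairwise contrasts at an adjusted p below 0.05, replicate 2 was higher than replicate 1 in 16 members (20% of all genes) and lower in 10 (19.1%). Replicate 2 was higher than replicate 3 in 18 members (7.13% of all genes) and lower in 0 (8.38%). Replicate 1 was higher than replicate 3 in 20 members (19.8% of all genes) and lower in 6 (20.5%). By position, 15 of 18 tested coding Hox genes of paralogue groups 1 to 8 differed between replicate numbers, and 9 of 14 of groups 9 to 13. Of all genes tested, 48.6% did. Median replicate 2 minus replicate 1 was 0.51 in groups 1 to 8 and -0.11 in groups 9 to 13 (log2), against 0.00 over all genes. The first set holds 7 HoxB genes and the second 1, so cluster and paralogue number are not separate here.

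In HoxD, the adjacent genes Hoxd12 and Hoxd13 ran in opposite orders. Hoxd12, at chr2:74675013-74677705, immediately 3′ of Hoxd13, measured 4.31, 9.65 and 7.26 CPM in sgPVT1 replicates 1, 2 and 3, against 3.91, 9.21 and 7.20 CPM in sgTom. Its replicate 2 minus replicate 1 was 1.11 ± 0.10 (log2, SE) and replicate 1 minus replicate 3 was -0.75 ± 0.10, with an adjusted p of 7.37e-06. Hoxd13, next to it, was highest in replicate 1 under both guides, with replicate 2 minus replicate 1 of -0.17 ± 0.04 (log2, SE) and an adjusted p of 0.0155 for the 3 numbers. The Hoxd13 call was lost without sgPVT1 replicate 1 (adjusted p = 0.0873), sgPVT1 replicate 3 (0.0522) or sgTom replicate 1 (0.0764), with DESeq2 (0.103) and with limma without trend (0.110). Hoxd8 measured 3.69, 2.74 and 2.56 CPM in sgPVT1 and 4.59, 3.36 and 2.72 CPM in sgTom, highest in replicate 1, with an adjusted p of 0.00662, or of 0.0512 without sgTom replicate 1 and 0.0562 with DESeq2. Hoxd10 measured 5.86, 4.91 and 5.38 CPM in sgPVT1, against 6.06, 5.44 and 5.68 CPM in sgTom (adjusted p = 0.290). Hoxd10, Hoxd9 (1.94 to 2.70 CPM) and Hoxd11 (4.17 to 5.44 CPM) did not pass the test. Hoxd11, on the other side of Hoxd12, was like it lowest in replicate 1 and highest in replicate 2 under both guides.

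In HoxA, both replicate 3 libraries lay below the other 4 in 8 of 11 genes, against 16.1% of all genes. Hoxa5, Hoxa6 and Hoxa7, central genes active in the thoracic region, had their lowest values in the replicate 3 libraries. Hoxa5, also a lung regulator, measured 5.32, 7.43 and 4.54 CPM in sgPVT1, against 6.23, 7.23 and 4.54 CPM in sgTom (adjusted p = 0.00133). Hoxa7 lay between 10.9 and 17.4 CPM, with an adjusted p of 0.0145, or of 0.0962 without sgTom replicate 3 and 0.0855 with limma without trend. Hoxa6 lay between 0.907 and 1.99 CPM, with an adjusted p of 0.00324, or of 0.113 without sgPVT1 replicate 3.

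Hoxa9, Hoxa10 and Hoxa13, further 5′, were highest in both replicate 1 libraries, and Hoxa10, Hoxa11 and Hoxa13 were also lowest in both replicate 3 libraries. Hoxa10 exceeded its replicate 3 level by 0.56 ± 0.06 in replicate 1 (log2, SE; adjusted p = 4.16e-05 for the 3 numbers). Hoxa9 lay between 8.87 and 13.02 CPM, with an adjusted p of 0.00661, or of 0.0515 without sgTom replicate 1 and 0.0550 with limma without trend. Hoxa13, which acts in digits and the urogenital tract, measured 14.6, 12.8 and 11.2 CPM in sgPVT1, against 15.0, 14.5 and 12.7 CPM in sgTom, with an adjusted p of 0.0172. That call was lost without sgPVT1 replicate 1 (adjusted p = 0.0705), sgPVT1 replicate 3 (0.193) or sgTom replicate 3 (0.0890), and with DESeq2 (0.107). Hoxa11 had an adjusted p of 0.0112, and of 0.108 without sgPVT1 replicate 3 or 0.160 without sgTom replicate 3, 0.0731 with DESeq2 and 0.0706 with limma without trend. Hoxa3 and Hoxa4, towards the 3′ end, did not pass, with adjusted p-values of 0.139 and 0.174.

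In HoxC, Hoxc6 and Hoxc13 were the clearest and ran differently. Hoxc6, a thoracic gene, measured 13.2, 16.9 and 10.9 CPM in sgPVT1 replicates 1, 2 and 3, against 12.8, 15.4 and 9.82 CPM in sgTom (adjusted p = 0.000147). Hoxc13, which controls hair and nail formation, measured 12.04, 7.36 and 8.18 CPM in sgPVT1, against 12.8, 8.02 and 7.63 CPM in sgTom (adjusted p = 0.000139). Hoxc6 was thus highest in replicate 2 and lowest in replicate 3, and Hoxc13 was highest in replicate 1. Hoxc8 measured 4.43, 8.61 and 2.74 CPM in sgPVT1, against 5.35, 5.75 and 2.66 CPM in sgTom (adjusted p = 0.00136).

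Hoxc5, with an adjusted p of 0.00861, or of 0.0619 with limma without trend, was lowest in replicate 1, at 3.58, 5.66 and 4.40 CPM in sgPVT1 and 2.39, 6.70 and 5.37 CPM in sgTom. Its annotation overlaps Hoxc10 and shares exon bases with it. Hoxc10, a hindlimb-level gene, was level, at 7.39, 7.70 and 7.73 CPM in sgPVT1 and 7.43, 7.08 and 7.81 CPM in sgTom, with replicate 2 minus replicate 1 of 0.00 ± 0.09 and replicate 1 minus replicate 3 of -0.06 ± 0.09 (log2, SE). Hoxc4 had an adjusted p of 0.0155, or of 0.270 without sgPVT1 replicate 2 and 0.132 with DESeq2. Hoxc9 had one of 0.0307, or of 0.426 without sgPVT1 replicate 3 and 0.0604 without sgTom replicate 3, 0.215 with DESeq2 and 0.0714 with limma without trend.

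Tbx15, Tbx4 and Tbx18 had the highest levels per kilobase among the Tbx genes. Tbx15, a regulator of dermis and limb bone, measured 70.0, 65.4 and 60.8 CPM in sgPVT1 replicates 1, 2 and 3, against 70.2, 63.0 and 61.6 CPM in sgTom, and at 17.4 CPM per kilobase came second to Hoxd13. Tbx18, which marks mural cell and ureter mesenchyme, measured 40.2, 31.7 and 33.0 CPM in sgPVT1, against 43.6, 30.3 and 33.1 CPM in sgTom. Tbx4, the hindlimb gene, measured 32.6, 26.8 and 27.3 CPM in sgPVT1, against 33.6, 28.9 and 25.4 CPM in sgTom. All 3 were highest in both replicate 1 libraries, with adjusted p-values of 0.00881, 0.000200 and 0.00296. The Tbx15 call was lost without sgPVT1 replicate 3 (adjusted p = 0.0852) or sgTom replicate 1 (0.0574), with DESeq2 (0.0589) and with limma without trend (0.0912). Without trend Tbx4 had an adjusted p of 0.0556.

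Tbx5, the forelimb gene, was lower than Tbx4 per kilobase, at 1.29 against 8.56 CPM per kilobase. It measured 7.25, 6.501 and 4.78 CPM in sgPVT1, against 6.79, 5.22 and 5.74 CPM in sgTom. Both replicate 1 libraries were above the other 4, with an adjusted p of 0.0591. It passed without sgPVT1 replicate 2 (adjusted p = 0.00118), sgTom replicate 2 (0.00336) or sgTom replicate 3 (0.0127). Tbx4 and Tbx5 were both present in each library, at 25.4 CPM or more for Tbx4 and 4.78 CPM or more for Tbx5.

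Tbx3 and Tbx2, repressors active at the limb margins and in the mammary line, ran the other way. Tbx3 measured 19.1, 30.8 and 30.8 CPM in sgPVT1, against 20.5, 28.3 and 29.8 CPM in sgTom. Replicate 1 was lower than replicate 3 by 0.60 on the log2 scale (replicate 1 minus replicate 3 of -0.60 ± 0.07, SE) with an adjusted p of 2.20e-05 for the 3 numbers. Tbx2, which lies next to Tbx4 on chromosome 11, measured 9.90, 10.3 and 13.5 CPM in sgPVT1, against 9.83, 11.9 and 12.3 CPM in sgTom. Both genes were lowest in the replicate 1 libraries, where Tbx4 was highest. Tbx2 had an adjusted p of 0.0169, or of 0.242 without sgPVT1 replicate 3, 0.0545 with DESeq2 and 0.0853 with limma without trend.

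Of the rarer Tbx genes, Tbx6, a presomitic mesoderm gene, lay between 0.488 and 1.80 CPM and was highest in replicate 1 (adjusted p = 0.00129). Tbx1, a pharyngeal gene, measured 0.453, 1.15 and 1.10 CPM in sgPVT1, against 0.433, 0.563 and 1.08 CPM in sgTom, lowest in replicate 1 (adjusted p = 0.0134). The Tbx1 call was lost without sgPVT1 replicate 1 (adjusted p = 0.0708) or sgTom replicate 3 (0.0555), with DESeq2 (0.0836) and with limma without trend (0.0697). Tbx20, a heart gene, lay between 4.05 and 5.58 CPM and did not pass (adjusted p = 0.256).

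**Figure D4:**
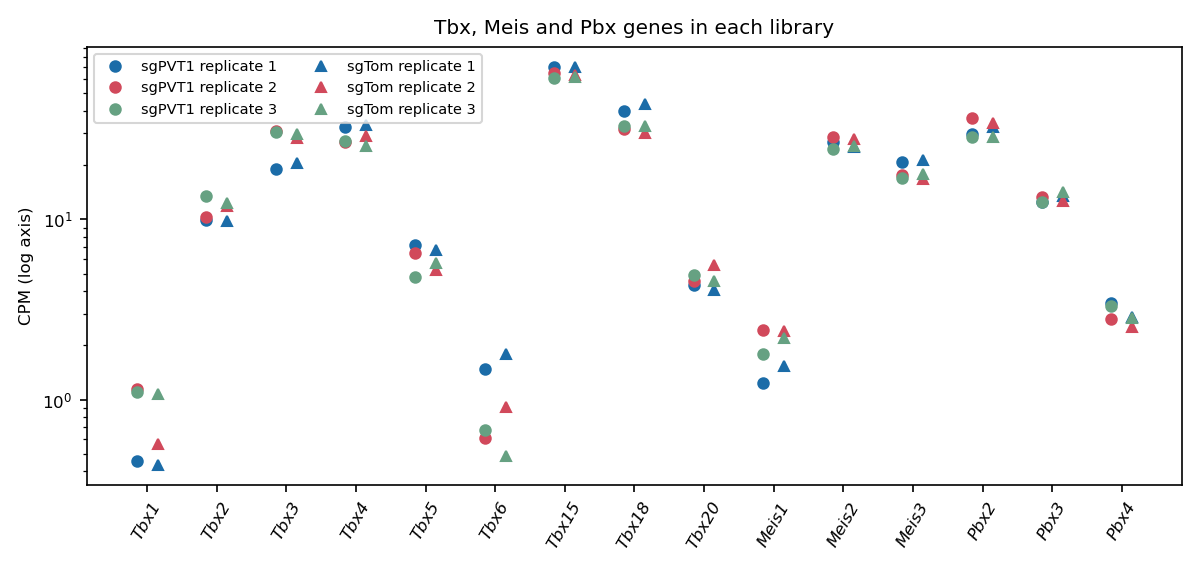
CPM on a log axis of Tbx, Meis and Pbx genes in each library, sgPVT1 circles to the left of sgTom triangles, colour for the replicate number. The 6 points of Pbx3 lie between 12.5 and 14.1 CPM, while in Tbx3 both replicate 1 points (19.1 and 20.5 CPM) lie below the other 4.

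Of the 7 genes for Hox partners, 3 passed the replicate test, which 48.6% of all genes did. Pbx3 measured 12.6, 13.3 and 12.5 CPM in sgPVT1 replicates 1, 2 and 3, against 13.4, 12.6 and 14.1 CPM in sgTom, and did not pass (adjusted p = 0.904). Pbx4, at 2.52 to 3.42 CPM, did not pass either (adjusted p = 0.315).

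Pbx2 measured 30.0, 36.8 and 28.6 CPM in sgPVT1, against 32.5, 34.2 and 28.8 CPM in sgTom. It was highest in replicate 2 under both guides, as the HoxB genes were, with replicate 2 minus replicate 3 of 0.30 ± 0.06 (log2, SE) and an adjusted p of 0.00536, or of 0.0732 with limma without trend.

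Meis2 measured 26.7, 28.7 and 24.7 CPM in sgPVT1, against 25.3, 28.0 and 25.4 CPM in sgTom (adjusted p = 0.0689). Meis3 measured 20.9, 17.6 and 16.97 CPM in sgPVT1, against 21.3, 16.7 and 17.97 CPM in sgTom, highest in replicate 1 (adjusted p = 0.00702). Meis1, a marker of the proximal limb, was the lowest of the 3 at 1.24 to 2.44 CPM, and was lowest in replicate 1 (adjusted p = 0.00687, or 0.0819 with DESeq2).

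The guide against the Pvt1 response element changed none of these genes by the test. At an adjusted p below 0.05 limma called 0 of the 51 members (0% of all 14440 genes), and with the replicate number in the model it again called 0 members (0.0346% of all genes, 5 genes). At an unadjusted p below 0.05 it called 0 members without the replicate number and 0 with it, against 0.346% and 6.68% of all genes. edgeR's quasi-likelihood test and DESeq2, on whole reads recovered from the CPM values, also called 0 members. The log2 fold changes of sgPVT1 over sgTom ran from -0.24 (Hoxb5os) to 0.23 (Tbx1), with a median of -0.02 against 0.00 over all genes. They were above 0 in 23 members and below 0 in 28, and the smallest adjusted p was 0.99997 without and 0.739 with the replicate number.

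**Figure D5:**
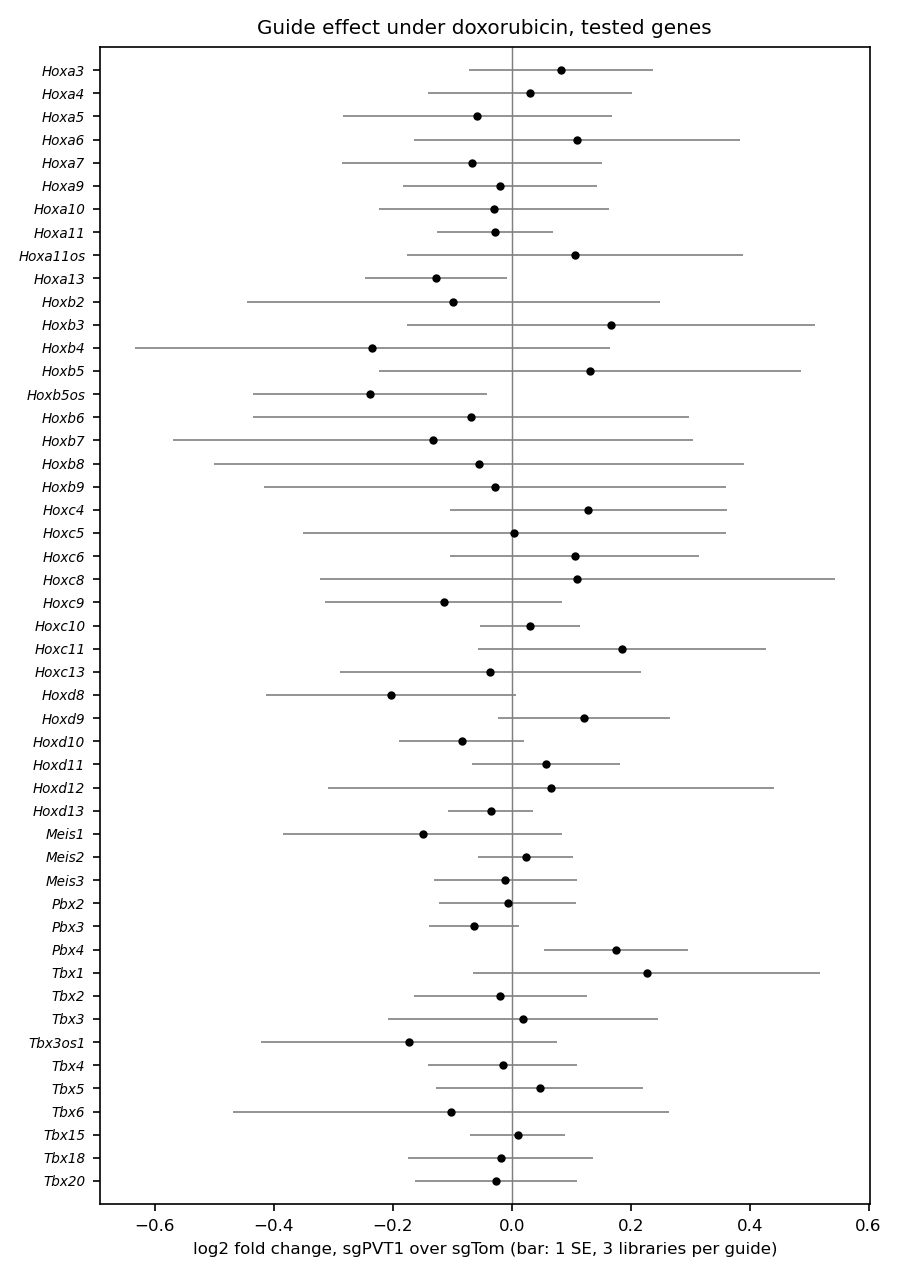
Log2 fold change of sgPVT1 over sgTom (horizontal axis, bars 1 SE, 3 libraries per guide) for tested genes, by family and paralogue number. The points lie between -0.24 and 0.23, and the bars of Hoxb8, Hoxb7 and Hoxc8 are the longest.

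Without the replicate number in the model, the smallest guide p-values among fold changes above 0 belonged to Pbx4, Hoxd9 and Tbx1. With it they belonged to Pbx4, Hoxc6 and Hoxb3. Pbx4 measured 3.42, 2.79 and 3.29 CPM in sgPVT1 replicates 1, 2 and 3, against 2.86, 2.52 and 2.84 CPM in sgTom. It was higher in sgPVT1 in 3 of 3 replicate numbers, at a log2 fold change of 0.18 ± 0.12 (SE). With the replicate number in the model the SE was 0.10 and the adjusted p 0.758. Hoxd9 measured 2.70, 2.40 and 2.10 CPM in sgPVT1, against 2.54, 1.94 and 2.03 CPM in sgTom (0.12 ± 0.14).

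Among fold changes below 0 the smallest p-values without the replicate number belonged to Hoxb5os, Hoxa13 and Hoxd8. With it they belonged to Hoxd8, Hoxa13 and Hoxb4. Hoxa13 averaged 12.9 ± 1.696 CPM in sgPVT1 libraries and 14.1 ± 1.24 CPM in sgTom libraries (SD, n = 3 each), a log2 fold change of -0.13 ± 0.12. Hoxd8 averaged 2.99 ± 0.606 CPM in sgPVT1 libraries and 3.56 ± 0.949 CPM in sgTom libraries, a log2 fold change of -0.20 ± 0.21. Both were lower in sgPVT1 in 3 of 3 replicate numbers. Over the 51 members, 7 were higher and 5 lower in 3 of 3 replicate numbers, against 14.4% of all genes in each direction. In 0 members were the guides free of overlap, against 2.15% of all genes with sgPVT1 above and 1.47% with sgPVT1 below.

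In the authors' deposited table, the members' log2 fold changes ran from -0.475 to 0.658 and their p-values from 0.258 to 0.992, and every FDR was 1.

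Other regulators of position were read from lists of genes. Of 32 tested homeobox and other positional transcription factors, 27 (84.4%) differed between replicate numbers, against 48.6% of all genes, and 0 between guides. Prrx1, a limb mesenchyme gene, measured 231, 343 and 301 CPM in sgPVT1 replicates 1, 2 and 3, against 246, 333 and 312 CPM in sgTom. Irx3, which acts in the proximal limb, measured 28.5, 44.4 and 48.7 CPM in sgPVT1, against 27.6, 38.6 and 48.3 CPM in sgTom. Twist1, a mesenchyme regulator, lay between 46.1 and 75.5 CPM and was, like both, lowest in replicate 1. Their adjusted p-values were 5.83e-06, 1.91e-06 and 8.16e-05.

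Osr1, a gene of intermediate mesoderm and limb connective tissue, measured 34.6, 24.3 and 17.5 CPM in sgPVT1, against 33.3, 20.2 and 19.5 CPM in sgTom, highest in replicate 1 (adjusted p = 0.000118). Pitx1, which acts upstream of Tbx4 in the hindlimb and is named here for that link after its values were seen, measured 23.7, 18.1 and 14.8 CPM in sgPVT1, against 27.4, 15.0 and 13.5 CPM in sgTom. It was highest in replicate 1 (adjusted p = 0.000529), as Tbx4 was. For the guide, the smallest p-values without the replicate number in the model were those of Prrx2 and Hic1, with log2 fold changes of 0.06 ± 0.07 and 0.13 ± 0.16.

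Among 13 tested Hox cofactors and upstream regulators, 8 (61.5%) differed between replicate numbers, against 48.6% of all genes, and 0 between guides. The 3 genes with the smallest p-values act on retinoic acid and were lowest in replicate 1, while its receptors Rara and Rarg did not pass (adjusted p = 0.252 and 0.196). Cyp26b1, which degrades retinoic acid, measured 8.52, 14.5 and 23.3 CPM in sgPVT1, against 7.32, 14.9 and 21.7 CPM in sgTom. Rarb, a retinoic acid receptor and target, measured 2.69, 7.13 and 7.33 CPM in sgPVT1, against 2.84, 8.39 and 8.49 CPM in sgTom. Aldh1a2, which makes retinoic acid, measured 0.892, 4.07 and 3.13 CPM in sgPVT1, against 1.11, 3.63 and 3.34 CPM in sgTom. Their adjusted p-values were 2.28e-07, 9.68e-07 and 4.97e-06.

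Gdf11, a trunk-to-tail signal, lay between 24.0 and 37.5 CPM and was highest in replicate 2 (adjusted p = 4.24e-05). Cdx1, Cdx2, Cdx4, Cyp26a1 and Fgf8 were not listed. For the guide, Pknox1, a further Hox partner, had a log2 fold change of -0.06 ± 0.07 (SE).

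Of 30 Polycomb and Trithorax genes, whose proteins keep Hox genes silent or active, 15 (50%) differed between replicate numbers, near the 48.6% of all genes, and 0 between guides. Bmi1 and Cbx7 encode Polycomb subunits. Bmi1 measured 60.6, 46.3 and 44.0 CPM in sgPVT1, against 61.3, 43.8 and 44.7 CPM in sgTom. Cbx7 measured 4.25, 2.18 and 1.83 CPM in sgPVT1, against 5.25, 1.59 and 1.69 CPM in sgTom. Both, and Ezh1 (18.2 to 27.0 CPM), were highest in replicate 1, with adjusted p-values of 1.74e-05, 0.000104 and 0.000139. Ash1l, a Trithorax methyltransferase, lay between 64.3 and 96.7 CPM and was lowest in replicate 1 (adjusted p = 1.15e-05). For the guide, the smallest p-values were those of Rnf2 and Kdm6b, with log2 fold changes of -0.11 ± 0.05 and 0.16 ± 0.09.

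Cell type markers also differed between replicate numbers, as 48.6% of all genes tested did. Of the 12 fibroblast markers 8 did, among them Lum, with replicate 1 minus replicate 3 of 2.08 ± 0.13 (log2, SE), and Thy1, with -0.92 ± 0.10. The summed level of the 13 listed of 14 macrophage markers was 332, 100 and 128 CPM in sgPVT1 replicates 1, 2 and 3, against 213, 107 and 126 CPM in sgTom, and 10 of the 13 differed. Lyz2 and Cd68, the largest parts of that sum, did not pass (adjusted p = 0.0515 and 0.100). The macrophage sum was highest in replicate 1, as 14 of the 51 members were (25.7% of all genes), among them Hoxa10, Hoxc13, Tbx4 and Tbx18. Another 9 members were lowest there (25.3% of all genes), among them Tbx3 and Hoxd12. The macrophage sum was lowest in replicate 2, where the HoxB genes were highest. Aif1 was not listed. The summed level of the 4 listed of 8 skeletal muscle markers was 37.7, 47.9 and 33.8 CPM in sgPVT1, against 38.5, 51.8 and 33.9 CPM in sgTom, highest in replicate 2, while Myod1, Myog, Myf5 and Actc1 were not listed. Most of that sum was Des, and Chrna1 was highest in replicate 3 (adjusted p = 0.000138). The chondrocyte markers summed to 102, 80.0 and 78.2 CPM in sgPVT1, against 161, 65.1 and 80.5 CPM in sgTom. Of these markers Comp was highest in replicate 1 under both guides, Acan and Col11a2 were highest in replicate 3, and Col2a1 was high in sgTom replicate 1 alone, at 86.6 CPM. The endothelial sum lay between 52.96 and 75.2 CPM and the epithelial sum between 57.0 and 100.4 CPM, both lowest in sgPVT1 replicate 2. Most of the endothelial sum was Kdr and most of the epithelial sum was Krt19, each lowest in both replicate 2 libraries. Egfl7, Krt18 and Cldn4 were lowest in replicate 1 instead (adjusted p = 0.00147, 3.38e-05 and 1.74e-06), and Tek was highest there. Cdh5, Tie1 and Krt8 were not listed. The neural sum lay between 202 and 261 CPM. The part of these cells in the differences between replicate numbers was not tested.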

How the data were processed

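RNA was measured by strand-specific polyA sequencing in 12 libraries, of which the 6 doxorubicin-treated ones were used. Per the submitters' processing notes, the tools were edgeR 3.22.3, HTSeq 0.6.1, StringTie 1.2.4 and TopHat2 2.0.14, with mm10; their roles and the annotation are not given in the sources used here. The deposited table gives CPM per gene, per the file headers, with the authors' log2 fold changes and p-values in its last columns. CPM values were whole multiples of 1 read (100% within 0.01 reads). The 6 pseudo-count columns were not used. Of 16427 rows, 2 named no gene (ambiguous reads, 0.543% to 1.58%, and reads in no feature, 8.06% to 8.94%) and were left out.

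Genes at 0.5 CPM or more in at least 3 libraries (14440) were fitted as log2(CPM + 0.5) with limma 3.58.1 (R 4.3.3; robust, with trend), and p-values were Benjamini-Hochberg adjusted over all of them. A fold change is on that scale and understates changes of low genes. The guide model had 4 residual degrees of freedom. The replicate model held guide and replicate number, with 2. Equal numbers paired the libraries: their deviations from the guide means correlated at 0.869, 0.739 and 0.817, and those of unequal numbers at 0.203 or less. The labels give the number as a biological replicate. The guide and replicate models were also run on simulated counts with known changes. The counts for the guide model held no difference between replicate numbers, unlike the data. That run therefore does not show what the guide model could detect here. Alternatives were edgeR 4.0.16, DESeq2 1.42.0 and other filters, scalings and pseudocounts. Exon lengths and coordinates came from GENCODE M21, in which all 55 genes matched.

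Full values are given for the 2 highest genes per Hox cluster and for Tbx, Meis and Pbx genes at 5 CPM or more. They are also given for the smallest p-values for replicate number and, without it in the model, for guide. Hoxa5, Hoxb4, Hoxb7, Hoxc5 and Hoxc8 were added after their values were seen. The members and gene lists were chosen with earlier results of these data known. A few genes that the naming rule covers are counted in the totals but not reported here by name.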

Additional observations from a re-analysis of the deposited data

How the results depend on the processing

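The guide calls among the members were 0 under every setting run: other scalings, filters, pseudocounts, limma without trend, edgeR, DESeq2, a threshold of 0.01, each library left out, and the replicate block. Over all genes the count was 0, against 1 with DESeq2 and 5 with the replicate block. The block changed no member's call. In 54 of 469 comparisons over 28 named genes, an uncalled guide fold change took the other sign.

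The number of genes differing between replicate numbers was 7022, against 4328 with limma without trend, 4662 at a threshold of 0.01 and 3164 to 7918 with libraries left out, lowest without replicate 1. The number of members was 34 (66.7%), against 24 (47.1%) with DESeq2, 23 (45.1%) with limma without trend and 26 (51.0%) at a threshold of 0.01. Of all genes tested, 33.8% (4876) differed with DESeq2, 29.97% with limma without trend and 32.3% at a threshold of 0.01. The number of members was 36 (65.5%) with no filter and 18 (75%) at a mean of at least 5 CPM, where fewer genes were tested. The shares of all genes under those filters were 44.2% and 52.99%. It was 23 to 39 with libraries left out. Of the 34, 22 passed without any 1 library, and 6 (Hoxa5, Hoxa10, Hoxb6, Hoxb9, Hoxc6 and Hoxd12) passed in every alternative that tested them (19, or 18 for Hoxb6, which lies below a mean of 5 CPM). Leaving out both libraries of 1 replicate number ended 27 of the 34 calls in at least 1 of the 3 cases. Without division by exon length, the HoxC share was 15.98% in place of 16.9%; the cause was not tested for limma without trend or for replicate 1.

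Members at 0.5 to 2 CPM rest on few reads (Hoxb5 on 36 to 111, Hoxc11 on 28 to 84). Small differences there may have been missed at this depth, which was not tested. With 2 libraries per replicate number, each standard error also rests on other genes, since limma draws a gene's variance towards that of genes of similar level.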
